A study of Mus musculus with 17 samples.

Results

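The genes described here encode the subunits of respiratory chain complexes II, III and IV and of the ATP synthase (complex V) that are carried on nuclear chromosomes, together with cytochrome *c*. They were taken from the deposited gene counts as protein-coding rows named *Sdha* to *Sdhd*, *Uqcr*, *Cyc1*, *Cycs*, *Cox4* to *Cox8* or *Atp5*. This gave 51 of the 56748 genes: 4 of complex II, 9 of complex III, cytochrome *c*, 19 of complex IV and 18 of complex V. The rule used names and no measured value. RNA was measured in heart tissue of 17 mice with 1 library per heart, 8 from controls (Ctrl) and 9 from hMut mice, all aged 12 to 16 months. The hMut mice were homozygous for the *Polg* iMut allele and carried 1 copy of Ckmm-cre, in which the muscle creatine kinase promoter drives Cre in heart and skeletal muscle. Cre removes a floxed wild-type *Polg* cassette, after which the mitochondrial DNA (mtDNA) polymerase is made without proofreading, and this design acts in muscle cells but not in the other cells of the heart. The exact genotype of the Ctrl mice was not given with the samples, and their labels say only Ctrl.

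Complex II (succinate dehydrogenase) links the citric acid cycle to the respiratory chain and is built from nuclear-encoded subunits alone. Complex III passes electrons to cytochrome *c*, complex IV (cytochrome *c* oxidase) passes them to oxygen, and complex V makes ATP from the proton gradient. These last complexes join nuclear-encoded subunits to a few made from mtDNA, so their assembly draws on both genomes. Several complex IV subunits come in tissue isoforms: *Cox6a2*, *Cox7a1* and *Cox8b* are the forms of heart and skeletal muscle, and *Cox6a1*, *Cox7a2* and *Cox8a* are the forms found in most tissues.

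Levels are given as CPM (counts per 1e6 counts of the library) scaled by the trimmed mean of M values (TMM). Total counts were 34425783 to 46486964 in Ctrl and 32915159 to 40175122 in hMut, and the share on mtDNA-encoded genes was 23.5% to 30.9% and 15.9% to 23.0%. *Polg* itself was higher in hMut (log2 fold change 0.74 with a standard error, SE, of 0.10, adjusted p = 0.000448 in edgeR), with 8 of 9 hMut hearts above every Ctrl heart. All 20 cardiomyocyte markers passed the expression filter. The summed CPM of these markers was 77514 to 93740 in Ctrl and 77731 to 92314 in 7 of the hMut hearts, but 60847 in hMut replicate 6 and 58599 in hMut replicate 9. In the same pair of hearts the 10 fibroblast markers summed to 2247 and 1782 CPM, against 1044 to 1216 in Ctrl and 1035 to 1335 in the other hMut hearts. The 10 myeloid markers summed to 1443 and 739 CPM in them, against 278 to 416 in Ctrl and 348 to 457 in the others. Other cell types did not all rise in them. The 10 endothelial markers summed to 1058 and 1336 CPM, against 974 to 1220 in Ctrl and 1046 to 1419 in the others. The 10 smooth muscle and pericyte markers summed to 1044 and 1449 CPM, against 1217 to 1507 in Ctrl and 1415 to 1590 in the others. Of the 7 atrial markers, *Myl7* and *Sln* had at most 19 and 11 counts in any library and were not tested. The 5 tested ones summed to 737 and 489 CPM in this pair. In Ctrl their sum was 70.2 to 199 CPM, and in the other hMut hearts 110 to 271. Of these 5, 4 had a log2 fold change above 0. In edgeR, 1 was called higher (adjusted p = 3.25e-05), as were 3.48% of all genes. *Nppa*, a natriuretic peptide gene that atria and stressed ventricle both use, had 28912 and 18767 counts in this pair, 1443 to 6263 in Ctrl and 2775 to 9318 in the other hMut hearts. None of the cardiomyocyte, fibroblast, myeloid or atrial markers was at 0 in every library. In whole tissue, fewer cells of a type and less RNA per cell cannot be told apart.

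Of the 51 genes, 48 had enough counts to be tested. Those left out were *Cox7b2*, *Cox8c* and a second gene ID named *Atp5o*; the last of these and *Cox8c* were at 0 counts in every heart. In all, 2 of the 48 passed the adjusted threshold of 0.05 in edgeR's quasi-likelihood test, *Cox8a* and *Cox6a1*, both higher in hMut, and 0 passed as lower. Over all 16195 genes tested, 3.48% were called higher and 1.14% lower. The log2 fold change was below 0 for 45 of the 48 members, with a median of -0.15, where the median over all genes was 0.0023. It was also below 0 for all 20 cardiomyocyte markers, with a median of -0.19, so the shift was not particular to the members. Without the adjustment, 8 members had p under 0.05 and a lower mean in hMut, and 11.3% of all genes did. DESeq2 gave the same 2 higher and 0 lower members (6.21% and 3.12% of its genes). With limma-voom and quality weights, *Cox8a* and *Cox6a1* were again the members called higher (7.26% of all genes), and *Atp5a1* and *Uqcrh* were called lower (5.59%).

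**Figure D1:**
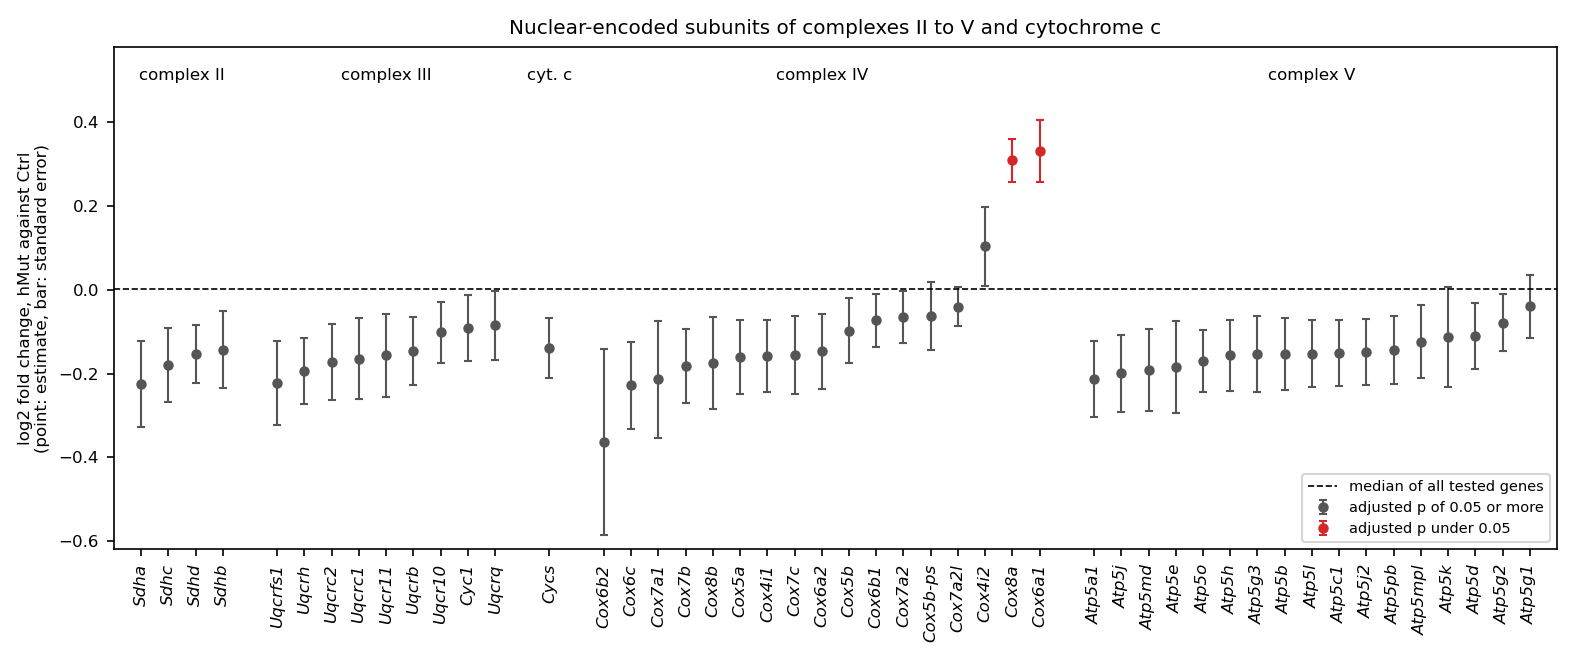
Log2 fold change of hMut against Ctrl (vertical axis, point) with its SE (bar) for each of the 48 tested members (horizontal axis), grouped by complex and ordered within it. *Cox8a* and *Cox6a1*, in red, passed the adjusted threshold, while *Cox4i2* at 0.10 is the other gene above 0 and the rest lie between -0.36 and -0.04 on this scale.

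Both genes that passed are ubiquitous isoforms of small complex IV subunits, and both are minor forms in the heart. *Cox8a* (chromosome 19, 7192518 to 7194981 on the minus strand of GRCm39) encodes the ubiquitous form of subunit 8. Its level was lowest at 61.2, with a median of 67.8 and a highest value of 74.6 CPM in the Ctrl hearts, and 75.0, 85.9 and 93.1 CPM in the hMut hearts. Every hMut heart was above every Ctrl heart, the lowest of them, replicate 2, by less than 1 CPM. This separation was found in 0.543% of all genes tested and in no other member. The mean rose from 67.9 ± 4.31 (SD, n = 8) to 84.2 ± 6.62 CPM (SD, n = 9), a log2 fold change of 0.31 (SE 0.051, adjusted p = 0.00171 in edgeR).

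*Cox6a1* (chromosome 5, 115483701 to 115487040, minus strand) encodes the ubiquitous form of subunit 6A. Lowest, median and highest CPM were 46.7, 52.6 and 58.7 in Ctrl, and 52.4, 66.5 and 77.4 in hMut. In 7 hMut hearts it was above every Ctrl heart, whereas replicates 1 and 2, at 56.3 and 52.4 CPM, lay within the Ctrl range. The mean rose from 53.0 ± 4.36 (SD, n = 8) to 66.7 ± 8.33 CPM (SD, n = 9), a log2 fold change of 0.33 (SE 0.073, adjusted p = 0.0152 in edgeR).

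The muscle partners of these genes are far more abundant in the heart and did not pass. *Cox6a2* (chromosome 7, 127804607 to 127805559, minus strand), the muscle form of subunit 6A, ran from 936 through a median of 1009 to 1096 CPM in Ctrl and from 664 through 958 to 1126 CPM in hMut. The lowest 2 values were those of hMut replicates 6 and 9, at 664 and 668 CPM, and the highest of all was hMut replicate 2. Its log2 fold change was -0.15 (SE 0.090, adjusted p = 0.300 in edgeR). *Cox8b* (chromosome 7, 140478858 to 140480359, minus strand), the muscle form of subunit 8, ran from 170 through 198 to 212 CPM in Ctrl and from 109 through 175 to 228 CPM in hMut, again with replicates 6 and 9 lowest (109 and 126 CPM) and replicate 2 highest. Its log2 fold change was -0.17 (SE 0.11, adjusted p = 0.311 in edgeR). No coding sequence of these 2 pairs had a stretch of at least 100 bases with 97% identity elsewhere in the genome, and the untranslated parts were not searched.

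**Figure D2:**
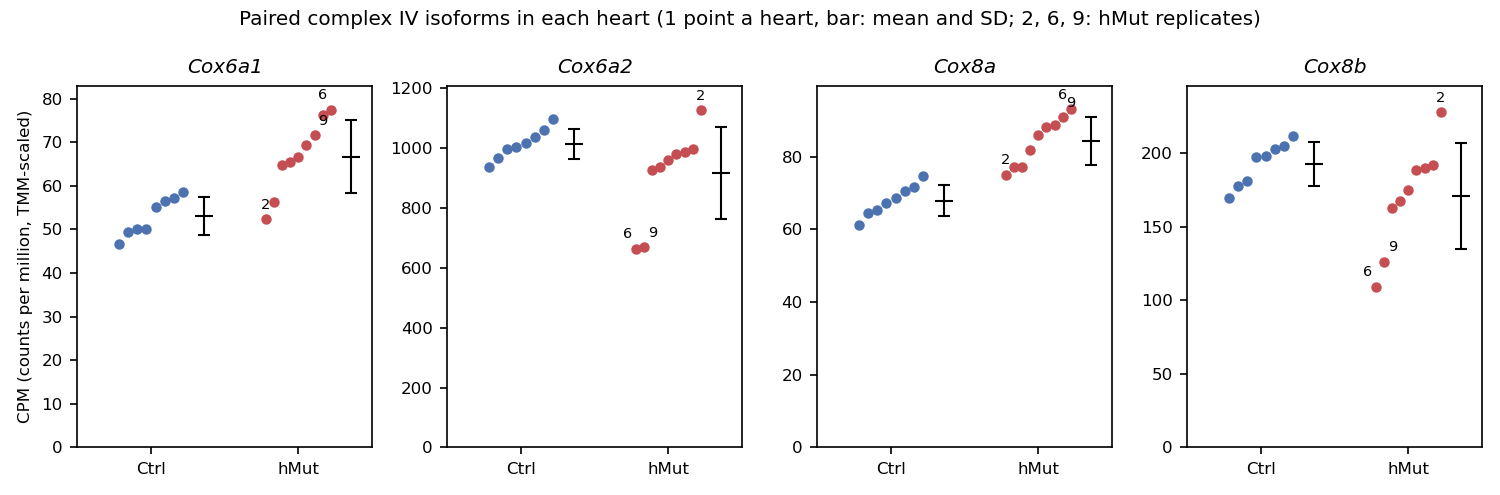
CPM (vertical axis, from 0) of *Cox6a1*, *Cox6a2*, *Cox8a* and *Cox8b* in each of the 8 Ctrl and 9 hMut hearts (points), with the mean and SD of each group beside them and hMut replicates 2, 6 and 9 numbered. Replicates 6 and 9 are lowest for *Cox6a2* (664 and 668 CPM) and *Cox8b* (109 and 126 CPM) and among the highest for *Cox6a1* and *Cox8a*.

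Because the 2 genes of a pair are counted in the same heart, their ratio does not depend on the library size or its scaling. The 9 ratios were compared between groups with two-sided exact permutation tests over all 24310 arrangements of the hearts, adjusted over the 9. *Cox6a2*/*Cox6a1* had a log2 count ratio of 4.03 to 4.39 in Ctrl (median 4.29) and 3.10 to 4.43 in hMut (median 3.84), with 7 hMut hearts below every Ctrl heart and replicate 2 above them all. The ratio fell by 0.49 on the log2 scale (SE 0.14, exact permutation p = 0.00321, adjusted p = 0.0144). *Cox8b*/*Cox8a* had 1.31 to 1.62 in Ctrl (median 1.51) and 0.23 to 1.60 in hMut (median 1.09), with 7 hMut hearts again below every Ctrl heart. This ratio fell by 0.51 (SE 0.15, exact permutation p = 0.00288, adjusted p = 0.0144).

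Shares were also taken after dividing by the gene length given with the counts, and lengths of single transcripts were not used. *Cox6a1* made up a median of 4.72% of the *Cox6a* pair in Ctrl (4.42% to 5.58%) and 6.34% in hMut (4.31% to 10.1%). *Cox8a* made up 16.9% of the *Cox8* pair in Ctrl (15.9% to 19.0%) and 21.4% in hMut (16.1% to 33.2%). The muscle isoform thus stayed the major form in every heart. hMut replicates 6 and 9 had the highest ubiquitous shares of all hearts, 10.1% and 9.39% for *Cox6a1* and 33.2% and 29.5% for *Cox8a*. Without these hearts, in which the fibroblast and myeloid markers were also highest, *Cox6a1* and *Cox8a* had log2 fold changes of 0.28 (adjusted p = 0.0397) and 0.27 (adjusted p = 0.00451) in edgeR. The ratios then fell by 0.32 for *Cox6a2*/*Cox6a1* and by 0.33 for *Cox8b*/*Cox8a*, each with an exact permutation adjusted p = 0.0399. The part of cell composition in these differences was not tested further.

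For the third pair of muscle and ubiquitous isoforms, no difference was called. *Cox7a1* (chromosome 7, 29883569 to 29885503), the muscle form of subunit 7A, was at 263, 322 and 346 CPM (lowest, median and highest) in Ctrl and at 146, 292 and 374 in hMut, where the 146 was replicate 6 and 182 was replicate 9. *Cox7a2* (chromosome 9, 79662643 to 79667160), the ubiquitous form, was at 217, 242 and 257 CPM in Ctrl and at 190, 227 and 258 in hMut. Log2 fold changes were -0.21 (SE 0.14, adjusted p = 0.328) and -0.07 (SE 0.061, adjusted p = 0.509) in edgeR. *Cox7a1*/*Cox7a2* had a log2 ratio of 0.13 to 0.56 in Ctrl and -0.39 to 0.54 in hMut, a difference of -0.19 (SE 0.11, exact permutation p = 0.111, adjusted p = 0.167). Only replicates 6 and 9 lay below every Ctrl heart, and without them the difference was -0.06. The ubiquitous *Cox7a2* already made up 29.6% of this pair per length in Ctrl (median) and 31.4% in hMut.

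*Cox4i1* encodes the common form of the regulatory subunit 4 and *Cox4i2* a form linked to oxygen sensing in lung and vessels. *Cox4i1* was at 1048, 1135 and 1210 CPM in Ctrl and at 743, 1052 and 1229 in hMut, and *Cox4i2* at 6.44, 7.44 and 8.34 CPM in Ctrl and 5.85, 7.64 and 9.57 in hMut. *Cox4i1* therefore supplied 98.7% of the pair per length in Ctrl (median) and 98.4% in hMut. *Cox4i2*/*Cox4i1* differed by 0.27 (SE 0.11, exact permutation p = 0.0301), with 5 hMut hearts above every Ctrl heart, and missed the threshold after adjustment (adjusted p = 0.0677). *Cox4i1* lies opposite *Emc8*, whose mean count of 807 was small beside the 39847 of *Cox4i1*, and whether the authors' counting used the strand was not stated.

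*Cox6b2*, the testis form of subunit 6B, was close to the limit of detection at 0.602 to 1.53 CPM in Ctrl and 0.439 to 0.994 in hMut, beside 387 to 432 and 314 to 454 CPM of *Cox6b1*, its partner in other tissues. The ratio differed by -0.24 (SE 0.24, adjusted p = 0.420 by exact permutation), about its own error. *Cox7a2l* encodes a protein related to subunit 7A that is known for binding complexes III and IV into supercomplexes, a role not examined in these hearts. Its level was 188 to 219 CPM in Ctrl and 171 to 220 in hMut, and *Cox7a2l*/*Cox7a2* differed by 0.03 (SE 0.058, adjusted p = 0.613 by exact permutation). Of its coding sequence, 51.8% has a near copy elsewhere, so its counts are uncertain.

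*Atp5g1*, *Atp5g2* and *Atp5g3* encode the same mature subunit c, which forms the rotor ring of complex V. *Atp5g3* had the highest level per length of the 3, 507 CPM per kilobase in Ctrl, followed by *Atp5g1* at 180 and *Atp5g2* at 79.0. The gene lengths used were 2181, 4912 and 1675 bases for *Atp5g3*, *Atp5g1* and *Atp5g2*, and these gaps depend on them. Before division by length the Ctrl means were 1106 CPM for *Atp5g3*, 883 for *Atp5g1* and 132 for *Atp5g2*. The differences in log2 ratio were 0.09 for *Atp5g2*/*Atp5g3* (SE 0.034, exact permutation p = 0.0270, adjusted p = 0.0677) and 0.13 for *Atp5g1*/*Atp5g3* (SE 0.057, exact permutation p = 0.0536, adjusted p = 0.0965). For *Atp5g1*/*Atp5g2* the difference was 0.04 (SE 0.044, exact permutation p = 0.391, adjusted p = 0.440). The whole coding sequence of *Atp5g1* and of *Atp5g2* has a near copy elsewhere in the genome, so these counts are uncertain.

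**Figure D3:**
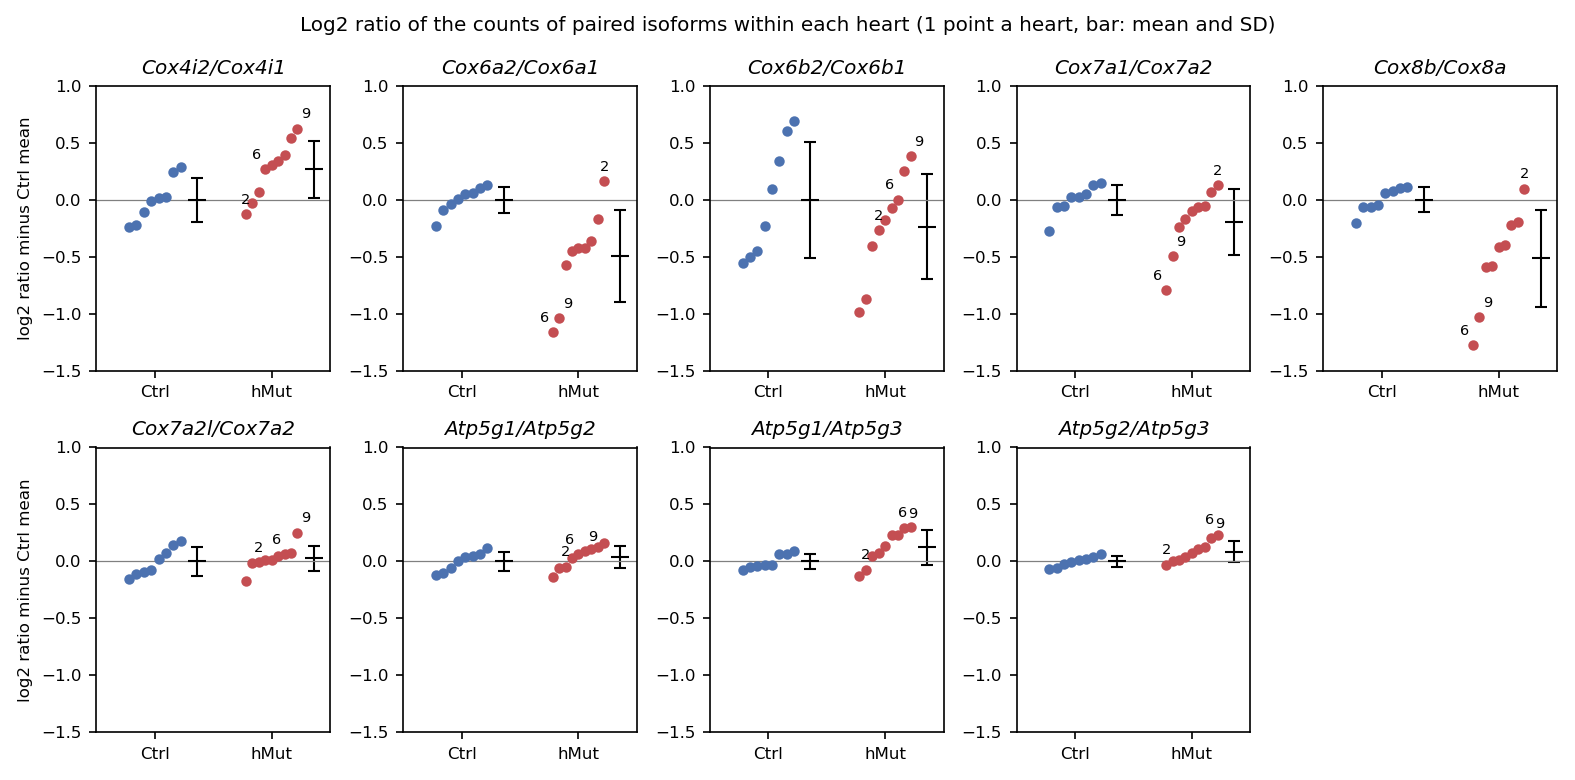
Log2 ratio of the counts of 9 isoform pairs in each heart, after subtracting the Ctrl mean of the pair (vertical axis), for 8 Ctrl and 9 hMut hearts (points), with the mean and SD of each group and hMut replicates 2, 6 and 9 numbered. For *Cox6a2*/*Cox6a1* and *Cox8b*/*Cox8a*, 7 hMut hearts lie below every Ctrl heart, and in the other 7 panels at most 5 hMut hearts lie on one side of the whole Ctrl range.

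The promoters of *Cox6a1*, *Cox8a* and *Cox8b* are shown because the first 2 genes rose and the third, the muscle partner of *Cox8a*, did not. The windows run from 250 bases before to 50 after the start of the gene, from RefSeq on the build GRCm38.p6, which is older than the build of the counts. That of *Cox6a1* lies at chr5:115348909-115349208, that of *Cox8a* at chr19:7217567-7217866 and that of *Cox8b* at chr7:140900397-140900696, all on the minus strand and written 5′ to 3′ along the gene. Capitals mark matches, on either strand, to the cores GCGCANGCG of NRF1 and CCGGAAG of GABP, 2 factors known for their sites at genes of respiratory subunits.
Cox6a1: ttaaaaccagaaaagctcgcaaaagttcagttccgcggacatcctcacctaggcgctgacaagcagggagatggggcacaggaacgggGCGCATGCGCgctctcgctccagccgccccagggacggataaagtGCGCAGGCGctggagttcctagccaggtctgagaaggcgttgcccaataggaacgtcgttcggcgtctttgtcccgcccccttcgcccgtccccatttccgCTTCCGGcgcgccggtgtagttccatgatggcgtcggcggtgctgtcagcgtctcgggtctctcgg
Cox8a: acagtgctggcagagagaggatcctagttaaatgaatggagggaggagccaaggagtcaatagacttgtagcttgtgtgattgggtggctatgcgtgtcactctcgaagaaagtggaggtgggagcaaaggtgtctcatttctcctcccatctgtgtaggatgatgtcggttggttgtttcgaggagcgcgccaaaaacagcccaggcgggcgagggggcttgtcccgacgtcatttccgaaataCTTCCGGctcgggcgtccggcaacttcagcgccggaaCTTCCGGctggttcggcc
Cox8b: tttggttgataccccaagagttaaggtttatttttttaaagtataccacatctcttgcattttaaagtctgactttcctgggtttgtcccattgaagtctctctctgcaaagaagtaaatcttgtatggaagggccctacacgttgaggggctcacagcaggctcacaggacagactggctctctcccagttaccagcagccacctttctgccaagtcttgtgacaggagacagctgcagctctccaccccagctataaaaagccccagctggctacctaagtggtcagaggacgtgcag
The *Cox6a1* window held 3 matches to the NRF1 core, of which 2 overlap on opposite strands, and 1 to the GABP core. The *Cox8a* window held 2 matches to the GABP core, and that of *Cox8b* held none. The windows of the muscle form *Cox7a1* and the ubiquitous form *Cox7a2*, not printed here, also held none. No window was found for *Cox6a2*, the muscle partner of *Cox6a1*. A window was found for 37 of the 51 genes. Of these, 35.1% held an NRF1 core and 35.1% a GABP core, against 7.03% and 9.93% of the 27025 genes with a window. The ERR element TCAAGGTCA was found for 5.41% of the members and 0.466% of all genes, the YY1 core AAGATGGCG for 5.41% and 1.64%, and the ATF4 core TGATGNAA for 0 members and 4.51% of all genes. The other tested members with an NRF1 or GABP core, among them *Uqcrh*, *Sdhd*, *Sdha* and *Cycs*, all had log2 fold changes below 0. The cores were therefore not confined to the genes that rose. A match describes these letters in this window and is no evidence of binding.

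In complex II, 0 of 4 genes passed, and all 4 log2 fold changes were below 0, from -0.23 to -0.14. *Sdha* (chromosome 13, 74470373 to 74498399), the flavoprotein that oxidizes succinate, was highest per length at 465 CPM per kilobase in Ctrl. Its level ran from 1677 through a median of 1993 to 2085 CPM in Ctrl and from 1140 through 1735 to 1997 CPM in hMut, with replicates 9 and 6 lowest. Its log2 fold change was -0.23 (SE 0.10, adjusted p = 0.178 in edgeR). *Sdhd*, a membrane anchor, had the smallest adjusted p of the complex (0.174), with 401, 430 and 466 CPM in Ctrl and 302, 400 and 465 in hMut, and 6 hMut hearts below every Ctrl heart. *Sdhb*, the iron-sulfur subunit, was at 597 to 669 CPM in Ctrl and 412 to 715 in hMut, a log2 fold change of -0.14 (SE 0.092, adjusted p = 0.323 in edgeR).

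In complex III, 0 of 9 genes passed, and all 9 log2 fold changes lay between -0.22 and -0.08. *Uqcrh* (chromosome 4, 115924162 to 115932268), the hinge subunit beside cytochrome *c*1, had the smallest adjusted p of any member that did not pass. Its level ran from 357 through 388 to 407 CPM in Ctrl and from 246 through 349 to 421 CPM in hMut. In 7 hMut mice it was below the Ctrl range and in replicate 2 above it, and the log2 fold change was -0.19 (SE 0.078, adjusted p = 0.135 in edgeR). Without hMut replicate 2 it passed, at -0.24 (adjusted p = 0.0380 in edgeR), as the single member then called lower, in a fit that called 4.12% of all genes lower. *Uqcrfs1*, the Rieske iron-sulfur protein, was highest per length at 577 CPM per kilobase in Ctrl and had 728, 792 and 838 CPM in Ctrl and 445, 703 and 847 in hMut, also with 7 hMut hearts below every Ctrl heart (log2 fold change -0.22, SE 0.10, adjusted p = 0.172 in edgeR). The small subunits *Uqcr11* and *Uqcrb* followed per length, at 404 and 377 CPM per kilobase in Ctrl, with log2 fold changes of -0.16 and -0.15 (adjusted p = 0.316 and 0.249 in edgeR). Near copies elsewhere in the genome cover 48.4% and 88.2% of their coding sequences, so these counts and their place in the order are uncertain.

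*Cycs*, the somatic form of cytochrome *c*, was at 571, 641 and 699 CPM in Ctrl and at 468, 579 and 673 in hMut, with a log2 fold change of -0.14 (SE 0.071, adjusted p = 0.219 in edgeR). Its whole coding sequence has near copies elsewhere in the genome, so this count is uncertain.

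In complex IV, 17 of 19 genes were tested, and besides *Cox6a1* and *Cox8a* none passed. The 3 highest genes per length in Ctrl were *Cox6a2* at 1490 CPM per kilobase, *Cox4i1* at 724 and *Cox7a1* at 592. *Cox6a1* and *Cox8a*, at 75.4 and 110 CPM per kilobase, were far lower. Isoforms known from testis were near or at 0: *Cox7b2* had 96 counts over all 17 hearts and *Cox8c* had 0, which at these depths allows up to 3 counts per library. A gene named *Cox5b-ps* is listed as protein coding, at 45.5 ± 3.47 CPM in Ctrl (SD, n = 8), but its coding sequence matches other loci over its full length, so its reads may belong to those.

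In complex V, 17 of 18 genes were tested and 0 passed, with log2 fold changes from -0.21 to -0.04. *Atp5a1* (chromosome 18, 77861429 to 77870569) and *Atp5b* (chromosome 10, 127919142 to 127926260), the alpha and beta subunits that form the catalytic head, were highest per length at 1410 and 1263 CPM per kilobase in Ctrl. *Atp5a1* ran from 3847 through 4403 to 4742 CPM in Ctrl and from 2826 through 3895 to 4609 CPM in hMut, with a log2 fold change of -0.21 (SE 0.091, adjusted p = 0.156 in edgeR), the smallest adjusted p of the complex. *Atp5b* ran from 4773 through 5379 to 5726 CPM in Ctrl and from 3647 through 4997 to 5727 CPM in hMut (log2 fold change -0.15, SE 0.086, adjusted p = 0.258 in edgeR). *Atp5c1*, the gamma subunit of the central stalk, was at 988, 1022 and 1081 CPM in Ctrl and at 686, 970 and 1110 in hMut, with 7 hMut hearts below every Ctrl heart and a log2 fold change of -0.15 (SE 0.078, adjusted p = 0.224 in edgeR).

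Heart by heart, hMut replicates 6 and 9 stood apart as the lowest. Summed over the 48 members, these hearts had 66.0% and 68.3% of the Ctrl mean, the other 7 hMut hearts 89.8% to 107.6%, and the Ctrl hearts 92.2% to 106.4%. By complex, replicate 6 had 62.1% of the Ctrl mean for complex II, 63.6% for III, 67.2% for IV and 66.7% for V, and replicate 9 had 63.6%, 68.4%, 70.1% and 68.4%. *Cycs* stood at 73.6% and 73.1%.

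For 43 of the 48 members, these were the 2 lowest of all 17 hearts, a pattern found in 14.5% of all genes tested. The exceptions were *Cox4i2*, *Cox6a1*, *Cox6b2*, *Cox7a2l* and *Cox8a*. Among members, the lowest value relative to the Ctrl mean was that of *Cox7a1* in both hearts, at 45.95% and 57.54%, and the highest that of *Cox6a1*, at 146% and 135%. The same hearts had the lowest cardiomyocyte marker sums and the highest fibroblast and myeloid sums, and the part of these in the members' levels was not tested. Scaling the libraries on the cardiomyocyte markers moved the median of all genes to 0.22 and that of the members to 0.05. It left 7 of 48 members below 0. The members' median relative to that of all genes was -0.18 with this scaling and -0.16 in the main fit. Scaling moves all genes by nearly the same amount, so this difference cannot show the part of cardiomyocyte content. With the cardiomyocyte scaling 9 members were called higher (*Atp5g1*, *Atp5g2*, *Cox4i2*, *Cox5b*, *Cox6a1*, *Cox6b1*, *Cox7a2*, *Cox7a2l* and *Cox8a*), as were 34.7% of all genes.

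At the other end, hMut replicate 2 was the highest hMut heart for 41 of the 48 members, which held for 2749 of all 16195 genes. It was above every Ctrl heart for 33 of the 48, and the matching share of all genes was not computed. For *Cox6a1* and *Cox8a* it was the lowest hMut heart. Its *Polg* level of 65.1 CPM was above every Ctrl heart (27.1 to 47.2 CPM). The members' coefficient of variation had a median of 5.52% over the Ctrl hearts, 15.8% over the hMut hearts and 6.83% over the hMut hearts without replicates 6 and 9. Without replicates 6 and 9 the median log2 fold change of the members was -0.05, and 39 of 48 were below 0.

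**Figure D4:**
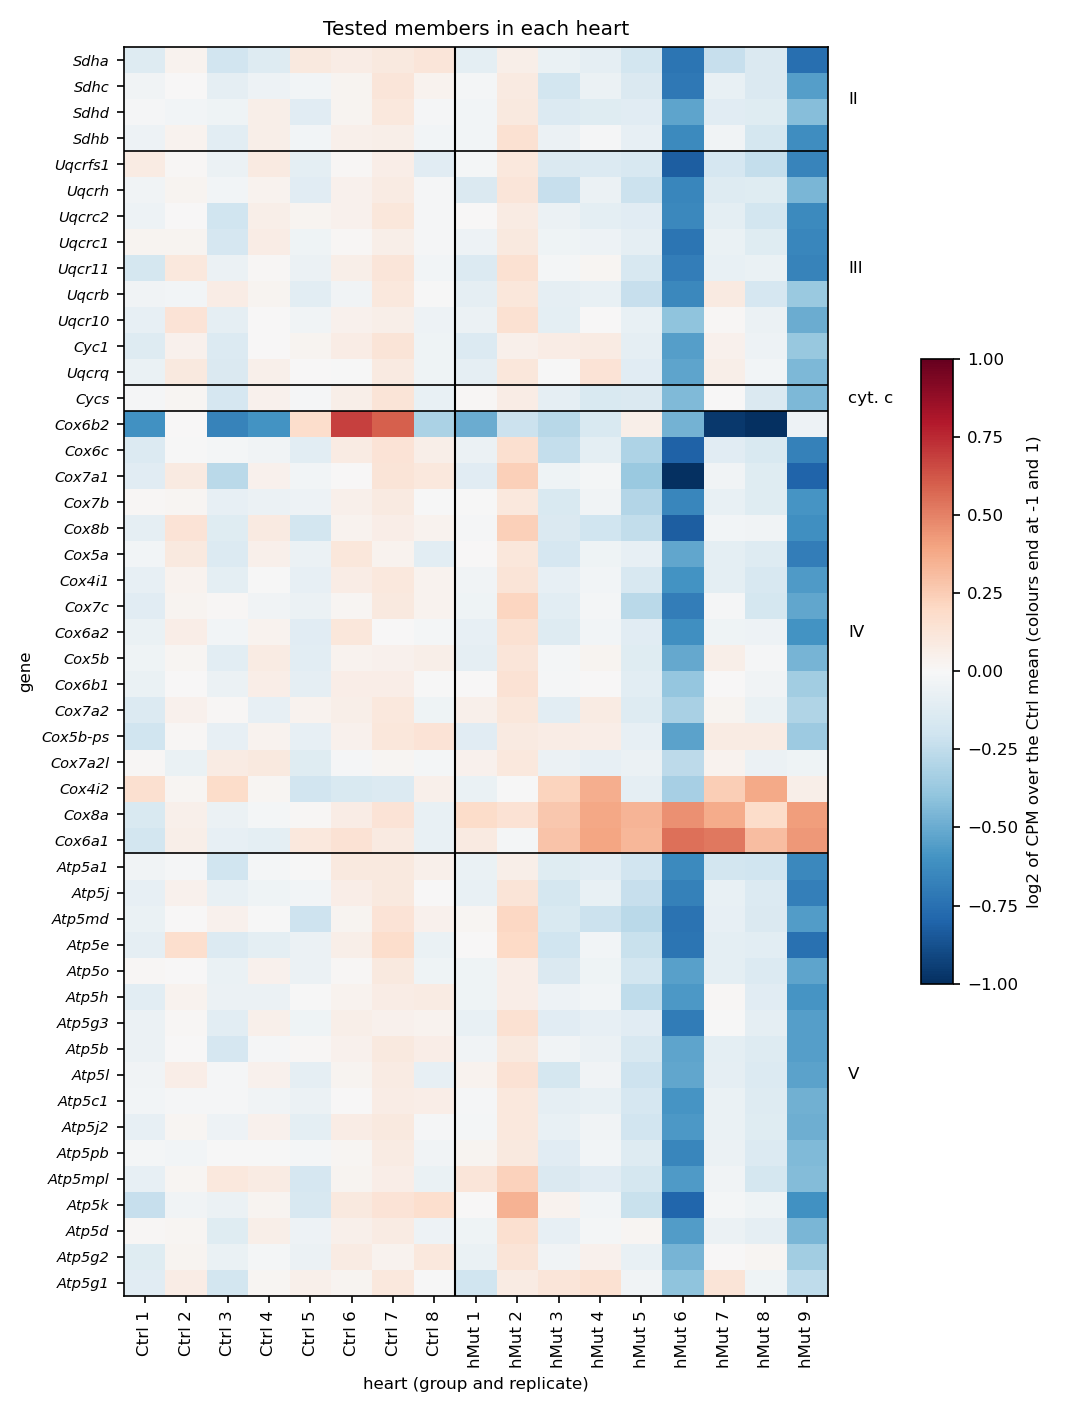
Log2 of the CPM over the Ctrl mean (colour) for the 48 tested members (rows, by complex) in 8 Ctrl and 9 hMut hearts (columns). hMut replicates 6 and 9 are blue, below the Ctrl mean, in most rows, and *Cox8a* and *Cox6a1* are red in them and in most other hMut hearts.

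**Figure D5:**
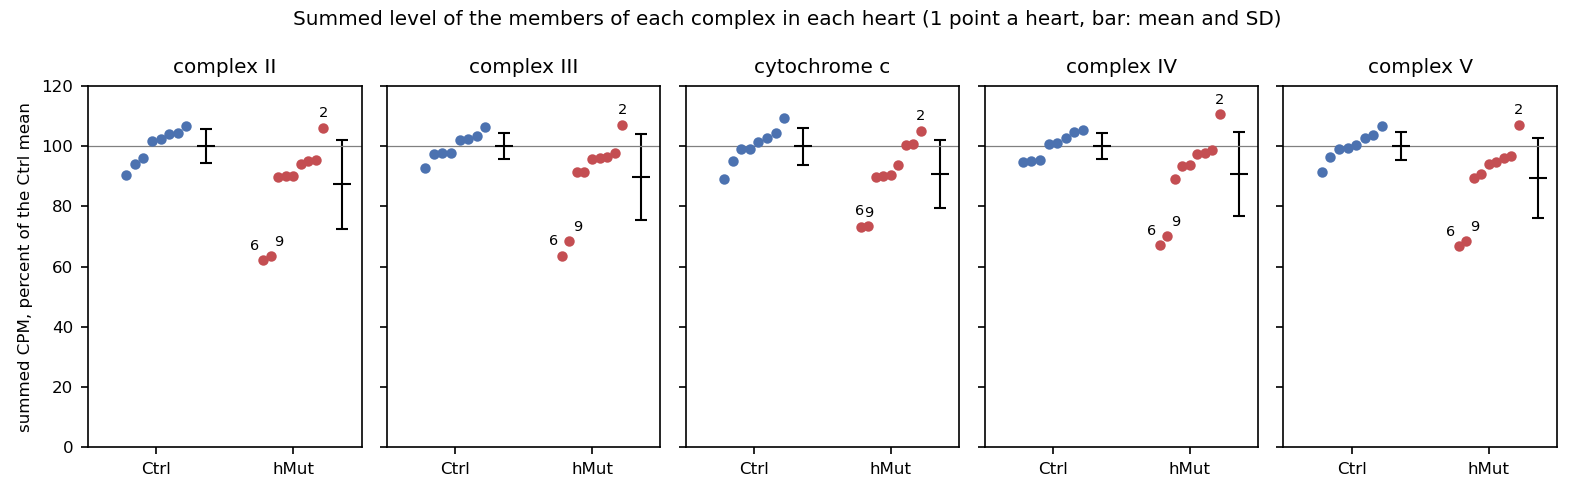
Summed CPM of the tested members of each complex as a percent of the Ctrl mean (vertical axis, from 0) in 8 Ctrl and 9 hMut hearts (points), with the mean and SD of each group and hMut replicates 2, 6 and 9 numbered. Replicates 6 and 9 lie between 62.1% and 73.6% in every panel, and the other hMut hearts between 89.0% and 110.7%.

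Genes that act beside these subunits were tested in the same fit. Of the subunits of complexes III to V encoded in mtDNA, 3 of 6 passed as lower in edgeR, as did 1.14% of all genes. *mt-Cytb*, the complex III cytochrome, was at 34680 to 47369 CPM in Ctrl and 11899 to 30633 CPM in hMut. Its log2 fold change was -0.72 (SE 0.14, adjusted p = 0.00743 in edgeR). Every hMut heart was below every Ctrl heart, a separation found in 0.0617% of all genes tested. *mt-Co1*, the catalytic subunit of complex IV, had a log2 fold change of -0.47 (adjusted p = 0.0196), and *mt-Atp6* of complex V one of -0.90 (adjusted p = 0.0280), each with 8 hMut hearts below every Ctrl heart. The call of *mt-Atp6* was lost without any one of Ctrl replicate 2 and hMut replicates 3, 5, 7 and 9 (adjusted p = 0.0508 to 0.0558 in edgeR). *mt-Co2* and *mt-Co3* were at -0.63 and -0.65 (adjusted p = 0.0896 and 0.0935) and *mt-Atp8* at -0.13 (adjusted p = 0.809). The count of 3 depends on the tool, since *mt-Co2* and *mt-Co3* were called lower by DESeq2 (adjusted p = 0.0318 and 0.0359) and by limma-voom (adjusted p = 0.0129 and 0.0299). Without hMut replicate 2, *mt-Co2* passed in edgeR as well (-0.71, adjusted p = 0.0426). The median over the 6 was -0.64, beside -0.15 for the nuclear-encoded members, and the difference between these medians was not tested. Ctrl means were 112532 CPM for *mt-Co1* and 39832 for *mt-Cytb*, but 3467 for *mt-Co2*, 2894 for *mt-Atp6*, 2830 for *mt-Co3* and 147 for *mt-Atp8*. Near copies elsewhere in the genome were searched for the 51 members and not for these 6 genes. How far copies affect these counts is not known.

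Of 40 tested assembly factors of complexes II to V, 0 passed in either direction at an adjusted p of 0.05, and their median was -0.07. At an unadjusted p under 0.05, 3 were higher and 6 lower, where 14.5% and 11.3% of all genes were. The 36 tested nuclear-encoded subunits of complex I, the chain's entry point for NADH, gave 0 higher and 0 lower as well (0 and 5 unadjusted), with a median of -0.13. Among 14 regulators of the PGC-1 and nuclear respiratory factor families, *Ppargc1a*, a coactivator of mitochondrial biogenesis, fell from 96.9 ± 6.56 (SD, n = 8) to 79.3 ± 7.87 CPM (SD, n = 9), with 8 hMut hearts below every Ctrl heart (log2 fold change -0.29, SE 0.058, adjusted p = 0.00812 in edgeR). The call was lost when the libraries were scaled on the cardiomyocyte markers (-0.08, adjusted p = 0.319 in edgeR). The other 13 did not pass, and 1.14% of all genes passed as lower. Of 18 targets of the integrated stress response, 17 passed as higher, as did 3.48% of all genes, and the median log2 fold change was 2.30. *Mthfd2* of mitochondrial folate metabolism and *Asns*, which makes asparagine, had log2 fold changes of 4.07 (adjusted p = 3.82e-07) and 3.56 (adjusted p = 4.56e-06, both in edgeR), and hMut replicate 2 was the lowest hMut heart for both, at 20.6 and 6.30 CPM, yet above every Ctrl heart. *Phgdh* and *Psat1* of serine synthesis and the transcription factor *Atf5* followed, at 3.94, 2.74 and 1.46.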

How the data were processed

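From poly(A) RNA of heart tissue the authors made the deposited raw gene counts. Reads from a NovaSeq X Plus passed through fastp, HISAT2 2.2.1 (on GRCm39) and featureCounts 2.0.6. Use of the strand in counting is not given in the sources used here.

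Groups and replicate numbers follow the labels. The members and gene lists were chosen with earlier results of these data known. Counts of the 56748 genes were filtered with filterByExpr, scaled by TMM and fitted in edgeR 4.0.16 under R 4.3.3 (quasi-likelihood test), with condition as the only term and Benjamini-Hochberg adjustment over 16195 genes at a threshold of 0.05. Each SE follows from the fold change and its F statistic. Log2 ratios of isoforms used raw counts plus 0.5 and an exact permutation test (Python 3.11.15). Both were tested on simulated data. Each library is 1 heart, and p-values measure the spread between these hearts.

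Named members are those past the threshold, both genes of each pair, the smallest adjusted p and the 3 highest per length (CPM divided by gene length) of each complex. *Cox5b-ps*, *Cox7b2*, *Cox8c* and replicates 2, 6 and 9 were singled out after their values were seen. Other lists are named by the 5 smallest adjusted p past the threshold. Near copies are stretches of at least 100 bases with 97% identity to the coding sequence outside the gene (BLAST 2.17.0+). Alternatives were DESeq2 (version 1.42.0), limma-voom (version 3.58.1), RLE, upper-quartile and cardiomyocyte-gene scaling, other filters, removal of mtDNA-encoded genes, sex read from sex-linked genes (3 females of 8 Ctrl, 2 of 9 hMut), a replicate block, and leaving hearts out. Depth per heart is given above. Floors of 3 counts cover counting error only.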

Additional observations from a re-analysis of the deposited data

How the results depend on the processing

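*Cox6a1* and *Cox8a* were called higher in all 28 alternative fits. Of 1367 recomputed values for 51 results, 1291 kept their direction and their side of the threshold or stayed near the main value. Where values did not, the cause was not tested. The number of genes called over the whole table was 749, and became 1517 with DESeq2, 2081 with limma-voom, 463 with no filter, 431 without hMut replicates 6 and 9, 185 with the replicate block and 5730 with cardiomyocyte-gene scaling. That scaling gave 9 members higher and a member median of 0.047. It turned the log2 fold change of *Atp5b* (0.047), *Atp5c1* (0.048), *Atp5g1* (0.17), *Atp5g2* (0.12), *Atp5g3* (0.043), *Cox4i1* (0.039), *Cox6a2* (0.049), *Cox6b1* (0.13), *Cox7a2* (0.14), *Cox7a2l* (0.17), *Cox8b* (0.017), *Cycs* (0.067), *Sdhb* (0.052), *Sdhd* (0.050), *Uqcr11* (0.036), *Uqcrb* (0.053), *Uqcrh* (0.0059) and *mt-Atp8* (0.094) above 0. With limma-voom, 2 members were called lower and *Atp5g1* was at 0.011. Without hMut replicates 6 and 9 the member median was -0.053, *Atp5g1* was at 0.034, *Atp5g2* at 0.0031 and *Cox6b1* at 0.0015, and *Cox7a2l*/*Cox7a2* turned to -0.0075.

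With each heart left out in turn, 395 (without hMut replicate 5) to 1792 genes (without hMut replicate 2) were called, with 1182 without hMut replicate 1 and 497 or fewer without any one of Ctrl replicates 1, 2, 5, 6, 7 and 8 and hMut replicates 5, 6, 7 and 9. Then 0 to 1 members were called lower (*Uqcrh*, without hMut replicate 2), and the member median ran from -0.19 to -0.10. The ratio differences ran from 0.22 to 0.32 for *Cox4i2*/*Cox4i1*, which passed without Ctrl replicate 3 or hMut replicates 1 or 2. They ran from 0.10 to 0.16 for *Atp5g1*/*Atp5g3* and from 0.068 to 0.10 for *Atp5g2*/*Atp5g3*, which passed without hMut replicates 1 or 2. *Atp5g1* ran from -0.066 to 0.00031, above 0 without hMut replicate 6, and *mt-Atp8* from -0.30 to 0.020, above 0 without Ctrl replicate 5.

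The deviations of same-numbered hearts had correlations of -0.23 to 0.34 over 8 pairs (median -0.08). The labels do not say whether same-numbered hearts share a batch or litter, and these 8 correlations cannot decide it. With the replicate block, which leaves out hMut replicate 9, *Cox6a2*/*Cox6a1* was at -0.42 and *Cox8b*/*Cox8a* at -0.44, and neither passed the threshold (exact permutation adjusted p = 0.0703 each). In edgeR, *mt-Co1* (-0.47, adjusted p = 0.0922), *mt-Atp6* (-0.97, adjusted p = 0.0672) and *Ppargc1a* (-0.28, adjusted p = 0.0548) did not pass with the block either, and *mt-Co2* did (-0.79, adjusted p = 0.0121).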
